A study of Mus musculus with 6 samples.

Results

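The genes described here are 9 genes of hepatic lipoprotein handling: Mttp and Tm6sf2 of very-low-density lipoprotein (VLDL) assembly, the receptors Lrp1, Scarb1 and Cd36, the lipase gene Lipc and the lipase inhibitor gene Angptl4, and Lcat and Abca1 of cholesterol efflux and high-density lipoprotein (HDL) maturation. They were chosen by name, with earlier results of these data known, and they are 9 of the 55487 genes in the count table of the series. All 9 passed the filter on low counts, so none is missing from the values below. Liver RNA was sequenced from 6 wild-type male C57BL/6J mice at 17 weeks of age on a normal chow diet, with 1 library per mouse. The mice had received a subcutaneous N-acetylgalactosamine (GalNAc) conjugate, 3 of them the control GalNAc-siNC and 3 of them GalNAc-siRnf10, a small interfering RNA against Rnf10, the gene of an E3 ubiquitin ligase; the study's text names this conjugate GalNAc-siRnf10-2. The GalNAc ligand binds the asialoglycoprotein receptor of hepatocytes, so it is hepatocytes that take up the conjugate, while the RNA came from whole liver. The study made these libraries to look for effects of the conjugate on genes other than its target. The dose and the injection times of these 6 mice were not used here, and no untreated mice entered the comparison.

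The liver loads triglyceride onto an apolipoprotein in the endoplasmic reticulum, a step that needs the microsomal triglyceride transfer protein, and secretes the particle as VLDL. Lipases at the vessel wall then hydrolyse the triglyceride, and angiopoietin-like proteins hold these lipases in check. The remnants return to hepatocytes through receptors of the low-density lipoprotein receptor family, while cholesterol leaves cells through ABC transporters, is esterified in plasma and is taken up by the liver from HDL.

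Of the 9 genes, 4 passed the test for a difference between the treatments. Lrp1, Scarb1 and Abca1 were lower in GalNAc-siRnf10 livers, by 0.56, 0.48 and 0.22 on the log2 scale, and Angptl4 was higher by 0.43. Lcat, Mttp, Tm6sf2, Lipc and Cd36 did not pass it. The test was the quasi-likelihood test of edgeR, with Benjamini-Hochberg adjustment over all 14046 genes tested and a call at an adjusted p under 0.05. By this rule 14% of all tested genes were called. Of all tested genes, 6.71% were called higher and 7.28% lower in GalNAc-siRnf10 livers. Among the lipoprotein genes, 1 of 9 was called higher and 3 of 9 lower. Since the 9 genes were chosen with earlier results of these data known, counts over them are descriptions. The median log2 fold change of the 9 genes was -0.067 and 6 of the 9 values were negative, while the median over all tested genes was 0.0022 and 6980 of the 14046 values were negative. The treatments were fully separated in normalized counts for 5 of the 9 genes, and for 32.8% of all tested genes. With 3 mice against 3, the exact two-sided permutation test cannot give a p below 0.1, and it gave 0.1 for each of those 5 genes.

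**Figure D1:**
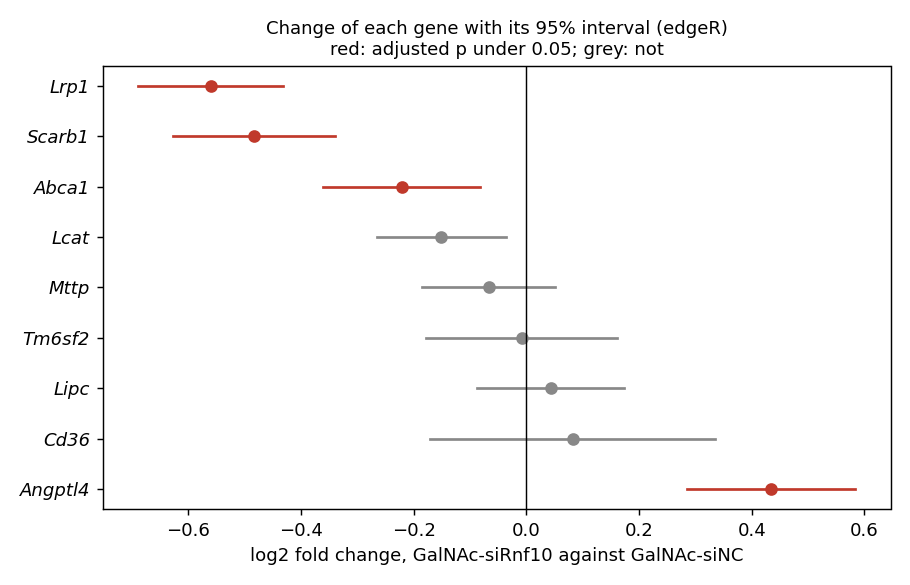
The log2 fold change of each of the 9 genes, GalNAc-siRnf10 against GalNAc-siNC, on the x axis, with points for the edgeR estimate and lines for its 95% interval. Lrp1, Scarb1 and Abca1 lie below 0 and Angptl4 lies above it in red, for an adjusted p under 0.05, and the interval of Lcat, in grey, also ends below 0.

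Total counts ran from 26854377 to 33058645 per library, so a floor of 3 counts was at most 1.12e-05% of a library. Rnf10 itself was checked first. Its normalized counts, on a scale where library size is equalized, were 3869, 4536 and 4040 in the GalNAc-siNC mice and 1738, 1820 and 1793 in the GalNAc-siRnf10 mice. Rnf10 fell by 57.0%, a log2 fold change of -1.22 ± 0.0715 (SE) with an edgeR adjusted p of 3.29e-09, and all 3 treated mice lay below all 3 controls. GalNAc-siNC mouse 1 stood somewhat apart from the other control mice: chi-square per gene, which is near 1 for pure counting noise, was 30.6 and 29.8 for its pairs, 10.4 for the remaining control pair and 4.71 to 5.40 for pairs of treated mice. Among the 9 genes, leaving this mouse out changed the call of Lcat alone. The coefficient of variation was higher in the control group for 8 of the 9 genes, Lcat being the exception, and for 66.1% of all tested genes. Its medians in control and treated mice were 7.68% and 1.77% over the 9 genes, and 11.1% and 7.33% over all tested genes.

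Markers of the liver's cell types moved as well, beside the 6.71% of all tested genes called higher and the 7.28% called lower. Of 8 hepatocyte markers, 6 were higher in GalNAc-siRnf10 livers and none was lower. The summed level of that list was 51439 to 60529 TPM, transcript abundance scaled for gene length and library, in the controls and 76345 to 77769 in the treated mice, and Alb, the albumin gene, took 3.72 to 4.36% and 5.93 to 6.08% of all counts. Of 8 sinusoidal endothelial markers 2 were higher (51.6 to 54.8 against 55.6 to 58.4 TPM), of 8 stellate cell markers 4 were higher (74.5 to 82.6 against 82.9 to 87.4 TPM), and of 8 Kupffer cell markers none was called (234 to 278 against 235 to 254 TPM). Of 5 cholangiocyte markers 1 was lower, Spp1, and the list summed to 96.3 to 103 TPM against 50.02 to 50.3 TPM. Spp1 made up most of that sum: the other 4 markers, none called, added up to 4.46 to 6.08 against 3.65 to 3.80 TPM. Without Alb, the other 7 hepatocyte markers added up to 12392 to 13515 against 16887 to 17067 TPM. Of 5 adipocyte markers none passed the filter, and Adipoq, Lep and Plin1 were at 0 in all 6 mice. Of 7 blood and lymphocyte markers none of the 5 tested was called (497 to 691 against 541 to 600 TPM). The log2 fold changes of the 8 hepatocyte markers ran from 0.11 to 1.41, with a median of 0.478. Cell number, RNA per cell and a change of single marker genes cannot be told apart in whole-liver RNA. The part of these markers in the results on the 9 genes was not tested.

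Neither Mttp nor Tm6sf2, the genes of VLDL assembly among the 9, was called. Mttp codes for the large subunit of the microsomal triglyceride transfer protein, which moves lipid onto the nascent particle. The gene (ENSMUSG00000028158) lies on the minus strand at chr3:138089854-138144968 of GRCm38, and its exons share 457 bases with Trmt10a on the opposite strand. Trmt10a had 126 to 155 counts, and the strand setting of the counting is not given in the sources used here. Mttp had normalized counts of 9830, 9014 and 9279 in the control mice and of 8853, 8860 and 9131 in the treated mice. The groups overlapped, since treated mouse 3 lay above control mouse 2. The fold was 0.954 with a 95% interval of 0.879 to 1.04 (edgeR adjusted p = 0.486). Tm6sf2, which codes for an endoplasmic reticulum membrane protein that helps to lipidate VLDL, lies on the plus strand at chr8:70072924-70080066 (ENSMUSG00000036151). Its normalized counts were 804, 756 and 772 in the control mice and 764, 769 and 787 in the treated mice, which interleave. The fold was 0.995 with an interval of 0.884 to 1.12 (edgeR adjusted p = 0.965), and the sign of the difference changed with the fit.

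Of the 12 other genes of VLDL assembly and secretion, all tested, 1 was higher and 2 were lower, with a median log2 fold change of -0.008 and 6 negative values. The shares over all tested genes, for this list and those below, were 6.71% called higher and 7.28% called lower. P4hb, which codes for protein disulfide isomerase, the partner subunit of the transfer protein, had normalized counts of 47327, 47563 and 44528 in the control mice and 39626, 39398 and 39531 in the treated mice. P4hb was lower in all treated mice than in any control (log2 fold change -0.23, edgeR adjusted p = 0.00384). Sort1, the gene of the sorting receptor sortilin, was also lower (-0.33, edgeR adjusted p = 0.00943). The Sort1 call was lost without treated mouse 1 (adjusted p = 0.0586) or treated mouse 3 (adjusted p = 0.0750). Aadac, the gene of an endoplasmic reticulum esterase, was higher (0.32, edgeR adjusted p = 0.000771), and its log2 fold change was 0.13 once GC content and length were fitted.

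The receptors held the largest decreases of the 9 genes. Lrp1 codes for the low-density lipoprotein receptor-related protein, a large endocytic receptor that takes up chylomicron remnants and many other ligands in hepatocytes. The gene (ENSMUSG00000040249) covers chr10:127538161-127621148 of GRCm38 on the minus strand, in 88 exon blocks that add up to 17717 bases. The 250 bases before its start in RefSeq, chr10:127621149-127621398 on the minus strand of GRCm38.p6, are shown because Lrp1 had the largest change among the 9 genes. Capitals mark the match of the GC box, GGGCGG on either strand, at positions -99 to -94 from the start, where it reads on the opposite strand.
Lrp1 promoter: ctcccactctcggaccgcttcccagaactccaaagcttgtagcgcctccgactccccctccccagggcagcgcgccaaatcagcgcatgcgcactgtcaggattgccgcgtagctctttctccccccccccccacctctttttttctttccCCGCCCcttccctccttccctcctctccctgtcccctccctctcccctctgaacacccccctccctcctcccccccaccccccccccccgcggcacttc

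Lrp1 had normalized counts of 33323, 37353 and 31366 in the control mice and of 22892, 23105 and 23215 in the treated mice. Every treated mouse lay below every control mouse, and the treated mice were close to each other (23071 ± 164 SD, n = 3) while the controls spread more (34014 ± 3052 SD, n = 3). Lrp1 fell by 32.2%, a log2 fold change of -0.56 ± 0.0609 (SE) with an edgeR adjusted p of 5.51e-06 and a 95% interval of -0.69 to -0.43. It kept its call in all 15 alternative fits, with values from -0.62 to -0.39, the latter with GC content and length fitted. In the longest transcript of Lrp1, 57.9% of the bases are G or C.

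Scarb1 codes for scavenger receptor class B type 1, the receptor through which hepatocytes take cholesteryl ester from HDL. It lies on the minus strand at chr5:125277087-125341094 (ENSMUSG00000037936). Its normalized counts were 5051, 5367 and 4602 in the control mice and 3462, 3729 and 3548 in the treated mice, with no overlap. Scarb1 fell by 28.5%, a log2 fold change of -0.48 ± 0.0678 (SE) with an edgeR adjusted p of 9.18e-05. The call held in all 15 alternative fits, between -0.55 and -0.43. Cd36 codes for a class B scavenger receptor that takes up fatty acids and modified lipoproteins, and lies on the minus strand at chr5:17781690-17888801 (ENSMUSG00000002944). Its normalized counts were 333, 293 and 262 in the control mice and 327, 300 and 314 in the treated mice. All treated values lay inside the range of the controls, and the fold of 1.06 had an interval of 0.889 to 1.26 (edgeR adjusted p = 0.716), the widest among the 9 genes.

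**Figure D2:**
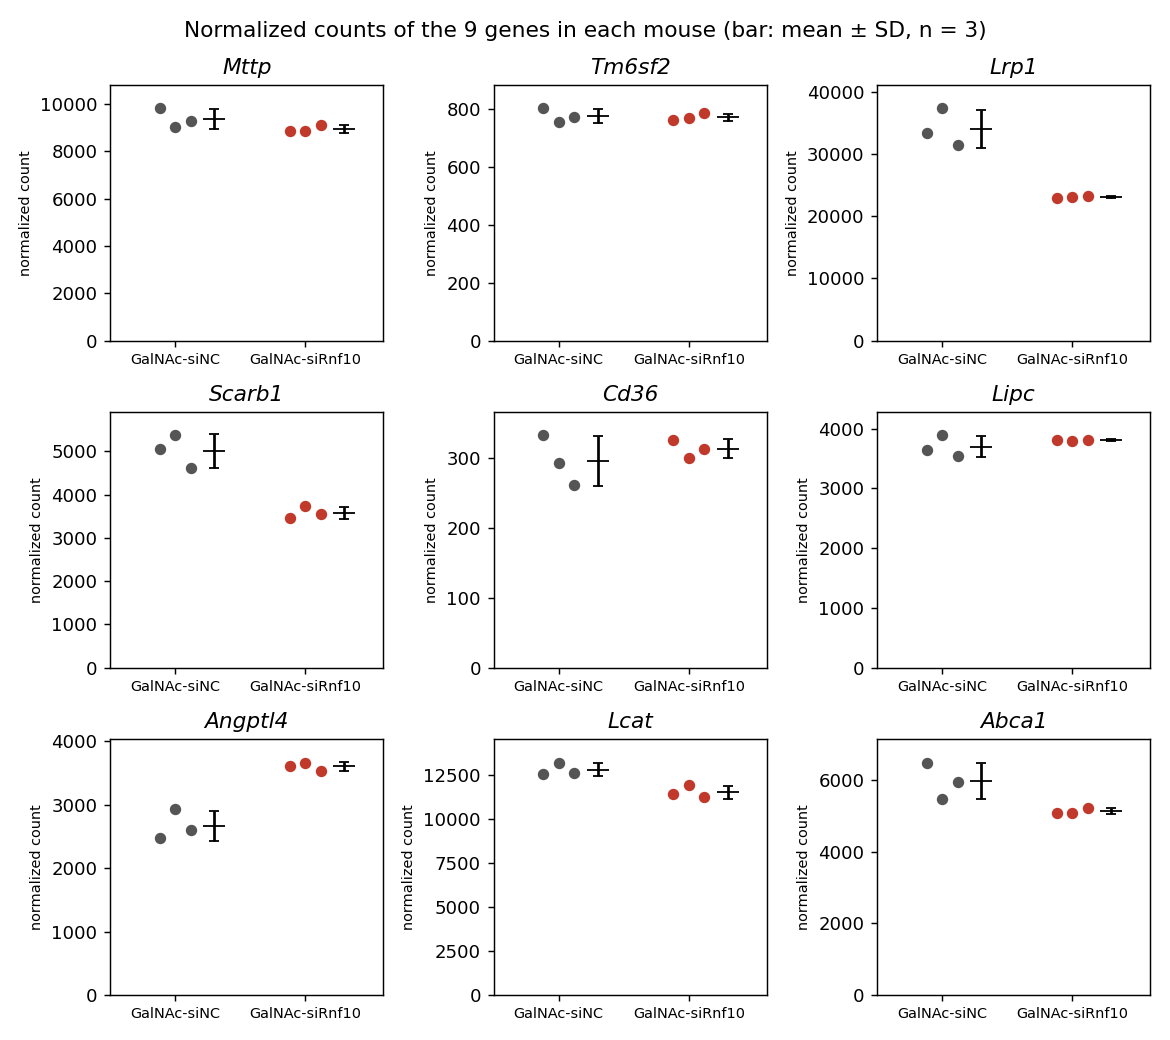
Normalized counts (y axis, from 0) of the 9 genes in each GalNAc-siNC mouse (grey) and each GalNAc-siRnf10 mouse (red), with the mean ± SD of 3 mice beside the points. Lrp1 and Scarb1 lie lower and Angptl4 lies higher in all 3 treated mice than in any control, Abca1 and Lcat are separated by a narrow gap, and the other 4 genes overlap.

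Among 12 other receptor and uptake genes, all tested, none was higher and 3 were lower, and 9 of the 12 values were negative, with a median log2 fold change of -0.163. Over all tested genes 7.28% were called lower, and 6980 of the 14046 values were negative. Lrp5, a co-receptor of Wnt signalling of the same receptor family, had normalized counts of 1835, 2045 and 1706 in the control mice and 1238, 1384 and 1386 in the treated mice (log2 fold change -0.48, edgeR adjusted p = 0.000592). Lsr, the gene of the lipolysis-stimulated lipoprotein receptor, had 3343, 3875 and 3291 in the control mice and 2436, 2623 and 2543 in the treated mice (-0.47, edgeR adjusted p = 0.000285). In both genes the treated mice lay below all controls. With GC content and length fitted Lrp5 was at -0.34 and Lsr at -0.43, both still called. Lrp10, another member of the receptor family, was lower by a smaller margin (-0.26, edgeR adjusted p = 0.0380), a call lost with GC content and length fitted (adjusted p = 0.224) and without control mouse 2 (0.122) or treated mouse 1, 2 or 3 (0.113, 0.210 and 0.0951). Sdc1, the gene of the proteoglycan syndecan 1 and the most abundant of the list per length, had a log2 fold change of -0.21 and was not called (edgeR adjusted p = 0.0612). The largest value of the list, 1.34 for Vldlr, came from a gene with normalized counts of 0 to 19.1 and was not called (edgeR adjusted p = 0.203).

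The lipase side of the pathway is represented by Angptl4 and Lipc. Angptl4 codes for a secreted inhibitor of lipoprotein lipase, and is known as a gene induced by fasting and by PPAR-alpha. It lies on the minus strand at chr17:33773750-33781830 (ENSMUSG00000002289). Angptl4 had normalized counts of 2472, 2929 and 2610 in the control mice and of 3618, 3668 and 3534 in the treated mice, and every treated mouse lay above every control. It was higher by 35.0% (2671 ± 234 against 3606 ± 67.9, SD, n = 3), a log2 fold change of 0.43 ± 0.0705 (SE) with an edgeR adjusted p of 0.000400 and a 95% interval of 0.28 to 0.58. The call held in all 15 alternative fits, between 0.38 and 0.50. Lipc, the gene of hepatic lipase, which hydrolyses lipids of remnants and HDL, lies on the minus strand at chr9:70798128-70952226 (ENSMUSG00000032207). Its normalized counts were 3646, 3888 and 3546 in the control mice and 3809, 3788 and 3816 in the treated mice. All treated values lay within the control range, and the fold of 1.03 had an interval of 0.941 to 1.13 (edgeR adjusted p = 0.714). The sign of the Lipc difference changed with GC content and length fitted.

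Of 10 other lipase, cofactor and angiopoietin-like genes, 9 were tested, 3 were higher and none was lower, with a median log2 fold change of 0.26 and 2 negative values. Over all tested genes 6.71% were called higher, and 6980 of the 14046 values were negative. Lipg, the gene of endothelial lipase, which acts on HDL phospholipid, had normalized counts of 385, 408 and 437 in the control mice and 678, 754 and 831 in the treated mice (log2 fold change 0.88, edgeR adjusted p = 1.04e-05). Lpl, the gene of lipoprotein lipase, had 507, 499 and 538 in the control mice and 843, 723 and 863 in the treated mice (0.65, edgeR adjusted p = 0.000129). In both genes every treated mouse lay above every control. Gpihbp1, the endothelial anchor of lipoprotein lipase, had 104, 129 and 122 in the control mice and 172, 175 and 178 in the treated mice (0.57, edgeR adjusted p = 0.0162). Its call was lost without treated mouse 1, 2 or 3 (adjusted p = 0.0567, 0.0618 and 0.0694). In the same livers the log2 fold changes of the 8 sinusoidal endothelial markers ran from -0.26 to 0.55 with a median of 0.228, and those of the 8 stellate cell markers from -0.27 to 0.37 with a median of 0.142. Their part in these calls was not tested. Angptl8, which codes for a partner of other angiopoietin-like proteins, had 371, 655 and 582 in the control mice and 338, 439 and 425 in the treated mice, overlapping, and was not called (-0.41, edgeR adjusted p = 0.277). Lipa, the lysosomal acid lipase gene and the most abundant of the list per length, was not called either (-0.12, edgeR adjusted p = 0.269).

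Cd36 was set beside 10 other genes of fatty acid uptake and binding, all tested, of which 1 was higher and 1 was lower, with a median log2 fold change of 0.08. Fabp2, a fatty acid binding protein gene best known from intestine, was higher (848 ± 104 against 1165 ± 14.5 normalized counts, SD, n = 3, log2 fold change 0.46, edgeR adjusted p = 0.00196), and its log2 fold change was 0.22 with GC content and length fitted. Fabp5, which codes for the epidermal fatty acid binding protein, had 2019, 2680 and 2866 in the control mice and 1240, 1421 and 1230 in the treated mice. It was lower in all treated mice (-0.96, edgeR adjusted p = 0.000825), the largest decrease among the genes of these lists. The 2 most abundant genes of the list per length, Fabp1, the liver fatty acid binding protein, and the acyl-CoA synthetase gene Slc27a2, had log2 fold changes of 0.21 and -0.066 and were not called (edgeR adjusted p = 0.623 and 0.432).

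Cholesterol efflux and HDL maturation were represented by Abca1 and Lcat. Abca1 codes for the ATP-binding cassette transporter that passes cholesterol and phospholipid to lipid-poor apolipoprotein A1, the first step of HDL formation, and is known as a target of the liver X receptors (LXR). It lies on the minus strand at chr4:53030787-53159895 (ENSMUSG00000015243), in 50 exon blocks. The 250 bases before its start in RefSeq, chr4:53159896-53160145 on the minus strand of GRCm38.p6, are shown beside those of Lrp1, since both genes were lower. Capitals mark, in order from 5′ to 3′, a GC box at positions -163 to -158 from the start, an E-box (CACGTG) at -147 to -142, another GC box at -97 to -92, and a TATA box (TATAAA) at -29 to -24.
Abca1 promoter: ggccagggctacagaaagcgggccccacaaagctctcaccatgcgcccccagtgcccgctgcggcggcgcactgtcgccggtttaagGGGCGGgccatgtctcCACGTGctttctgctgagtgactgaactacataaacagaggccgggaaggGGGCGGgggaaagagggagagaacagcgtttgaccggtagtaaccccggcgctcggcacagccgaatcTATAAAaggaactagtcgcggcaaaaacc

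RefSeq windows were found for 6 of the 9 genes, with 7 starts. Scarb1, which was lower too, had no window, and neither had Angptl4 and Tm6sf2. Each window was searched on both strands for the E-box, the GC box, the TATA box, the CCAAT box and the nuclear receptor half-site AGGTCA, none of which overlapped another in the windows printed. Of 32851 windows of the same length, 6.02% held the E-box, 32.7% the GC box, 12.4% the TATA box, 33.8% the CCAAT box and 14% the half-site. The Lrp1 and Abca1 windows shared the GC box, which the windows of Cd36 and 1 of the 2 starts of Lipc held too, and these matches describe letters only.

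Abca1 had normalized counts of 6500, 5484 and 5968 in the control mice and of 5089, 5079 and 5233 in the treated mice. The highest treated mouse lay just below the lowest control. Abca1 fell by 14.2%, a log2 fold change of -0.22 ± 0.0660 (SE) with an edgeR adjusted p of 0.0332 and a 95% interval of -0.36 to -0.082. The call was lost without control mouse 3 (adjusted p = 0.0695) or without treated mouse 1, 2 or 3 (0.157, 0.149 and 0.115), and held in the other 11 alternatives. Lcat codes for lecithin-cholesterol acyltransferase, which liver secretes and which esterifies cholesterol on HDL. It lies on the minus strand at chr8:105939551-105943382 (ENSMUSG00000035237). Its normalized counts were 12549, 13222 and 12651 in the control mice and 11422, 11943 and 11244 in the treated mice, which did not overlap. The log2 difference was -0.15 ± 0.0540 (SE) with a 95% interval of -0.26 to -0.037, at an unadjusted edgeR p of 0.0127, a level below 0.05 that 26.7% of all tested genes reached, and an adjusted p of 0.0756. Lcat was called with GC content and length fitted (-0.22, adjusted p = 0.00330, and 0.00335 with a replicate block), by limma (adjusted p = 0.0279) and without control mouse 1 (adjusted p = 0.00504).

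Of 11 other genes of efflux, esterification and HDL remodelling, all tested, 1 was higher and 2 were lower, with a median log2 fold change of 0.023. Abcg5, one part of the transporter that sends sterols into bile, had normalized counts of 2127, 1760 and 1941 in the control mice and 2653, 2394 and 2450 in the treated mice (log2 fold change 0.36, edgeR adjusted p = 0.00398), the opposite direction to Abca1. Its call was lost without treated mouse 1 (adjusted p = 0.0543), and Abcg8, the gene of the partner subunit, had 0.15 and was not called (edgeR adjusted p = 0.138). Abca2, a lysosomal lipid transporter gene, was lower (1780 ± 149 against 1376 ± 40.7, SD, n = 3, -0.37, edgeR adjusted p = 0.00308), and its log2 fold change was -0.21 with GC content and length fitted. Npc1, which carries cholesterol out of lysosomes, was lower (3182 ± 190 against 2600 ± 131, SD, n = 3, -0.29, edgeR adjusted p = 0.00835), a call lost without treated mouse 3 (adjusted p = 0.0899).

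The regulators and the neighbouring targets of these genes were read from 3 further lists. Of 15 transcription regulators, 1 was higher and 2 were lower, with a median log2 fold change of -0.028. Foxo1, which codes for an insulin-responsive factor known to activate Mttp, had normalized counts of 1106, 944 and 953 in the control mice and 1445, 1457 and 1552 in the treated mice (log2 fold change 0.57, edgeR adjusted p = 0.00011). Srebf2, the gene of the main activator of cholesterol synthesis, had 2658, 2878 and 2501 in the control mice and 1772, 1781 and 1817 in the treated mice (-0.58, edgeR adjusted p = 1.76e-05). With GC content and length fitted Srebf2 was at -0.42 and Foxo1 at 0.62, both still called. Foxa2, a liver pioneer factor gene, was lower (917 ± 94.6 against 636 ± 61.1, SD, n = 3, -0.53, edgeR adjusted p = 0.00135). The 2 most abundant regulators per length, Cebpa and Creb3l3, had log2 fold changes of -0.16 and -0.12 and were not called (edgeR adjusted p = 0.558 and 0.325). Ppara and Nr1h3, the genes of PPAR-alpha and of LXR-alpha, had 0.0015 and -0.028 and were not called either (edgeR adjusted p = 0.991 and 0.886).

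Angptl4 was higher while the other PPAR-alpha targets went both ways. Of 15 listed, all tested, 1 was higher and 2 were lower, with a median log2 fold change of 0.046. Plin2, which coats lipid droplets, had normalized counts of 10190, 11734 and 11104 in the control mice and 8525, 8370 and 8439 in the treated mice (log2 fold change -0.38, edgeR adjusted p = 0.000290). Acot1, an acyl-CoA thioesterase gene, had 106, 201 and 169 in the control mice and 244, 222 and 249 in the treated mice (0.59, edgeR adjusted p = 0.0486). The Acot1 call was lost without control mouse 1 (0.36, adjusted p = 0.0716) or 3 (adjusted p = 0.0806), without any 1 treated mouse (0.104 to 0.173), and with GC content and length fitted (0.0848).

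Abca1 can be set beside 9 other LXR targets, all tested, of which 1 was higher and 2 were lower, with a median log2 fold change of -0.182 and 5 negative values. The higher one was Abcg5, already given. Scd1, the stearoyl-CoA desaturase gene, had normalized counts of 76681, 65227 and 67672 in the control mice and 49963, 48562 and 49664 in the treated mice (log2 fold change -0.50, edgeR adjusted p = 1.29e-05). Lpcat3, which puts polyunsaturated chains into phospholipids, was lower (2562 ± 136 against 1935 ± 94.7, SD, n = 3, -0.40, edgeR adjusted p = 0.000698). Srebf1, the gene of the main activator of fatty acid synthesis, had -0.18 and was not called (edgeR adjusted p = 0.0938). Over the 8 lists together, 22 of 88 tested genes were called, 8 higher and 14 lower, beside 14% of all tested genes. The count was 32 without control mouse 1 (9 higher and 23 lower), when the count over all genes also went from 1965 to 2864, and 31 with GC content and length fitted (14 higher and 17 lower).

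**Figure D3:**
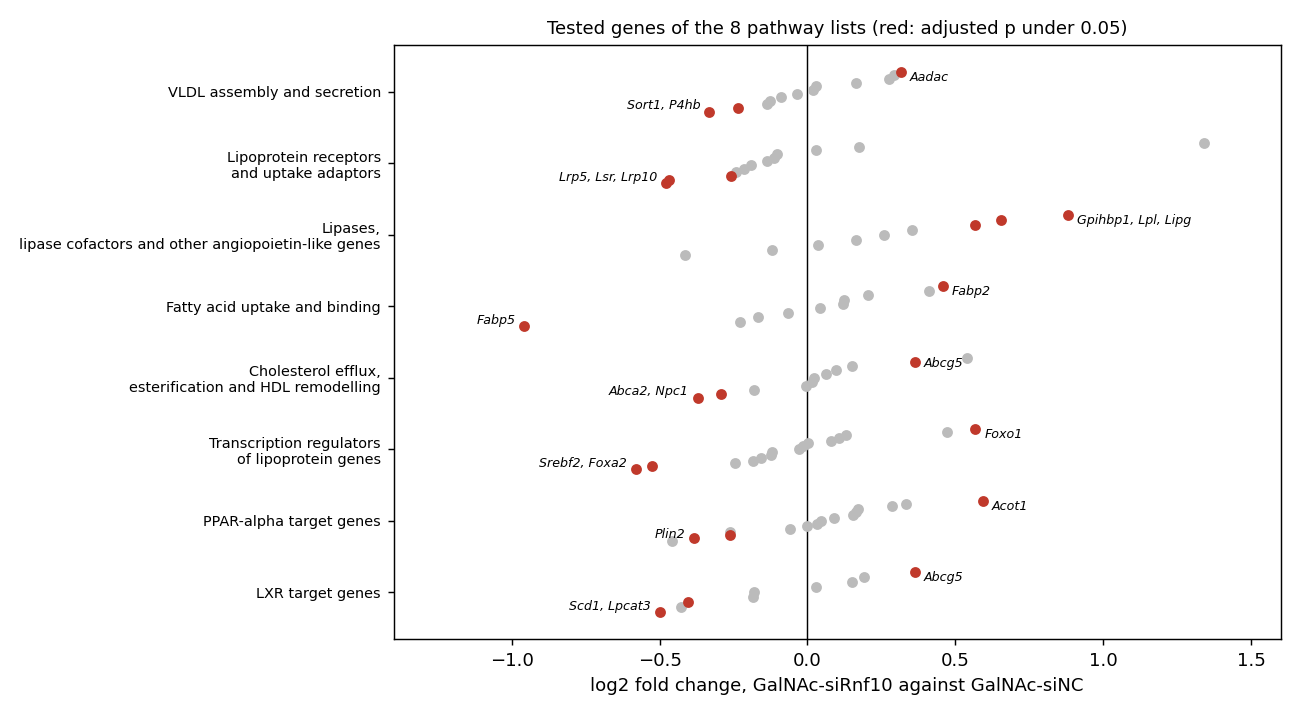
The log2 fold change (x axis) of each tested gene of the 8 lists, with red points for an adjusted p under 0.05, most of them named from left to right, and grey points for the rest. The red points lie on both sides of 0 in 6 of the lists, below 0 for lipoprotein receptors (3 genes) and above 0 for lipases (3 genes), and the grey point at 1.34 is Vldlr.

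Levels between the 9 genes were compared per length, in TPM computed from the counts and the summed exon length. Lcat had the highest mean level over the 6 mice, 736 TPM, followed by Lipc with 141, Lrp1 with 131, Mttp with 120, Angptl4 with 71.3, Abca1 with 43.6, Scarb1 with 41.2, Tm6sf2 with 33.04 and Cd36 with 6.88 TPM. Among the 14046 tested genes Lcat held place 163 and Cd36 place 6580, and the other 7 genes held places 695 to 2302. In the control mice the levels of Lipc and Lrp1 overlapped, and so did those of Abca1 and Scarb1, as did those of Lipc and Mttp, while in the treated mice only Scarb1 and Tm6sf2 overlapped among neighbours in the order. Lrp1 went from place 2 of the 9 in the control mice (161 ± 16.7 TPM, SD, n = 3) to place 4 in the treated mice (102 ± 1.93 TPM, SD, n = 3). The order depended on the length used: with the longest transcript in place of the summed exons, 3 of the 9 genes kept their place. TPM and normalized counts are scaled differently. From control to treated mice the mean of Tm6sf2 went from 34.4 to 31.7 TPM, but from 777 to 773 normalized counts. That of Mttp went from 127 to 112 TPM, but from 9374 to 8948 normalized counts. Alb took a larger share of all counts in the treated mice, and its part in this gap was not tested. Places and sums in TPM are therefore descriptions, and every test used normalized counts.

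**Figure D4:**
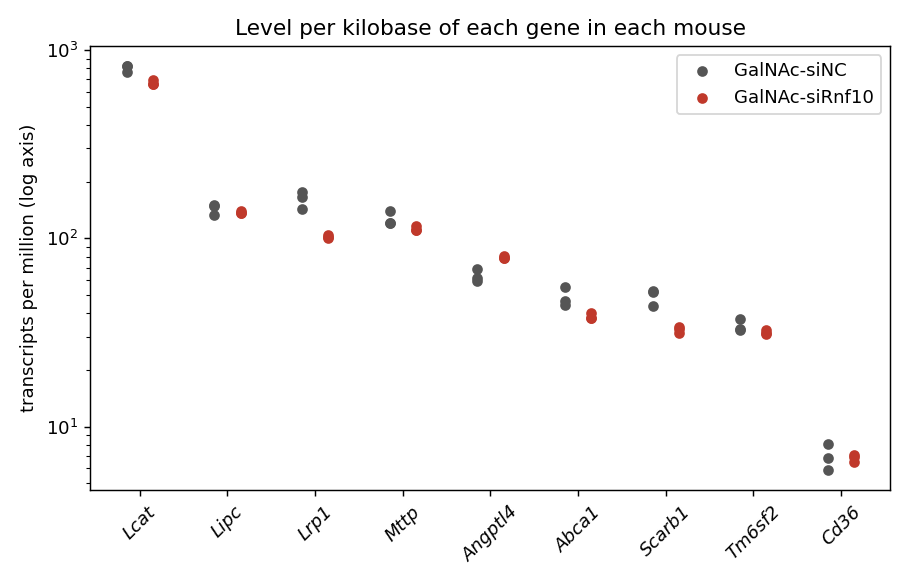
The level of each of the 9 genes in each mouse in TPM on a log axis, GalNAc-siNC in grey and GalNAc-siRnf10 in red, ordered by the mean over the 6 mice. Lcat lies above and Cd36 below all the others in every mouse, and the levels of Lipc, Lrp1 and Mttp lie close together.

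Genes whose pattern over the 6 mice was most like those of Lrp1 and Angptl4 were found by Pearson's r of log2 CPM, among genes that averaged 50 or more normalized counts. The 6 points share the 2 treatments, so these values are descriptions. For Lrp1 they were Plg, the plasminogen gene (r = 0.998), Srebf2 (r = 0.998) and Tns2, a focal adhesion gene (r = 0.997), with log2 fold changes of -0.31, -0.58 and -0.60. For Angptl4 they were Hpd, a tyrosine catabolism gene also listed among the hepatocyte markers (r = 0.998), Etnk2, an ethanolamine kinase gene (r = 0.998), and Chchd3, a mitochondrial cristae gene (r = 0.997), with log2 fold changes of 0.38, 0.34 and 0.19. All 6 were called, with edgeR adjusted p from 1.76e-05 to 0.0497. Genes picked for their likeness to a called gene tend to be called too, so these calls are descriptions as well. With GC content and length fitted Tns2 was at -0.45 and Etnk2 at 0.41, both still called. The Chchd3 call was lost in 10 of 15 alternatives, with an adjusted p of 0.0505 to 0.193, among them those without control mouse 3 (0.116) and without treated mouse 1, 2 or 3 (0.191, 0.193 and 0.163).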

How the data were processed

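RNA was isolated from whole liver with TRIzol, 1 library per mouse, and stranded mRNA libraries were sequenced as paired-end reads. The deposited values are raw read counts per gene, which the authors made from reads mapped to GRCm38 (mm10) with HISAT2. The counting program, annotation release and strand setting are not given in the sources used here, and 54821 of 55487 genes have the coordinates of GENCODE M21, which supplied symbols. The labels place all 6 mice in 1 batch. Groups came from the treatment label, and same-numbered mice are different animals.

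The counts were filtered with filterByExpr (14046 genes left), normalized by trimmed mean of M values (TMM), and tested with the quasi-likelihood test of edgeR 4.0.16 in R 4.3.3, with robust dispersions, treatment as the only term and Benjamini-Hochberg adjustment over all tested genes. The study used DESeq2. The biological coefficient of variation was 9.28%. A normalized count is the count scaled to the mean effective library size, which is the library size multiplied by its TMM factor. TPM used summed exon lengths. Standard errors were computed from the log2 fold change and the F statistic of the edgeR test, and intervals from these with a t quantile. Intervals are 95% and not adjusted. Simulated counts were used to check the main edgeR fit only, with the same dispersion for every gene and both groups. The wider spread of the control mice was not part of that simulation. Alternatives were RLE and upper-quartile scaling, DESeq2 1.42.0, no filter, a minimum of 10 counts per mouse, limma 3.58.1 (voom with quality weights), a replicate block, spline offsets for GC content and length, and leaving out each mouse.

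The 9 genes and the gene lists were chosen with earlier results of these data known, so counts over them are descriptions. The genes named are the 9 genes, Rnf10, called genes of each list, up to 2 most abundant genes per list, and the 3 closest patterns of Lrp1 and Angptl4. Vldlr, Trmt10a, Ppara, Nr1h3, the markers Alb and Spp1 and the markers at 0 were named after their values were seen. Results on some genes of these lists are not reported here, though the counts over the lists include them.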

Additional observations from a re-analysis of the deposited data

How the results depend on the processing

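Over 15 alternatives, 121 of 135 values of the 9 genes kept their direction and side of the threshold. Lrp1, Scarb1 and Angptl4 kept their calls in all 15. Abca1 lost its call in 4 and Lcat gained one in 4, as given with those genes. Values near 0 changed sign: Tm6sf2 was 0.001 with limma, 0.016 without control mouse 1 and 0.001 without treated mouse 1, Lipc was -0.041 with GC content and length fitted and -0.040 when a replicate block was added to that fit, and Cd36 was -0.002 without control mouse 3. When 1 mouse was left out, Tm6sf2 ranged from -0.029 to 0.016 and Cd36 from -0.002 to 0.175. Of 330 values of the 22 called list genes, 309 kept their call and 21 lost it.

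The number of genes called in all was 1965, and leaving out 1 mouse gave 1053 to 2864. It was 1053, 1128 and 1128 without treated mouse 1, 2 and 3, with 1 fewer sample in each fit. Without control mouse 1 it was 2864 and without control mouse 2 it was 1633. The alternatives that left out no mouse gave 1816 to 2379. With GC content and length fitted the calls were 1282 higher and 1097 lower, against 943 and 1022. Of the 9 genes, 3 to 5 were called when 1 mouse was left out. Only 3 of 9 kept their place in the order of levels with the longest transcript as length.

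Same-numbered mice did not deviate together (r = -0.003, 0.023 and -0.033), beside r of -0.032 to 0.034 for mice of different numbers. With so few mice, these values cannot show whether mice were handled in pairs. With the replicate block 1816 genes and 4 of the 9 lipoprotein genes were called, and Rnf10 was at -1.22. The block ended the calls of Lrp10 (-0.258, adjusted p = 0.0641) and Chchd3 (0.195, adjusted p = 0.0742).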
